A study of Rattus norvegicus with 8 samples.

Results

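The genes described here are AP-1 and immediate-early transcription factors, chosen by name: Fos, Fosb, Fosl1, Fosl2, Jun, Junb, Jund, Atf3, Egr1 and Ier2. Of these 10 genes, 9 had a probe whose accession matched the gene in the RefSeq table, with 10 probes between them. No probe was matched to Fosb, which was not analysed here. All 9 genes passed the filter on dim probes and were tested, among 10236 named genes tested in all.

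The cells were CD9-positive testis cells, sorted by flow cytometry with an antibody to CD9 from Sprague Dawley rats that carried a germ cell-specific GFP transgene in both age groups. There were 4 arrays from aged rats of 21 months and 4 arrays from young rats of 4 months, each hybridised with Cy3-labelled RNA in 1 colour. The comparison asked how transcripts of the sorted cells differed with age. The labels name neither the promoter of the transgene nor the number of animals behind an array, and no label says that the arrays of a group are separate animals. The p-values therefore refer to the spread among these arrays, part of which may be technical.

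AP-1 is a family of dimers in which a Jun protein (Jun, Junb or Jund) pairs with another Jun protein, a Fos protein (Fos, Fosb, Fosl1 or Fosl2) or an ATF protein such as Atf3, and binds short DNA elements in the control regions of genes. Many of these genes, with Egr1 and Ier2, are immediate-early genes: their transcription starts within minutes of a growth factor or stress signal, without new protein synthesis, through MAP kinases and serum response factor, and their transcripts are short-lived. In the testis, Fos has been described as a gene induced in mouse spermatogonial stem cells by GDNF, the growth factor that acts through Gfra1 and Ret.

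Signals are given as log2 of the processed intensity minus the 75th percentile of the non-control probes of the same array, so 0 is the level of that percentile. This percentile lay between 326 and 524 intensity units. Of the 30367 probes, a share of 63.0% to 72.0% stood well above background, depending on the array. No spot was saturated. The arrays lay on 1 slide, with the aged arrays in 1 row and the young arrays in another, and position on the slide therefore cannot be told apart from age. Cd9, the sorted surface protein, and the spermatogonial markers Zbtb16, Gfra1 and Ret and the germ cell helicase gene Ddx4 were well above background on all 8 arrays, and the values of Gfra1 and Ret are given with the marker lists. Young replicate 1 stood apart from the other 3 young arrays: 3776 of the 10236 genes were called without it, against 67 with all 8 arrays. Results are therefore given with and without it. This array was singled out from the same values that are tested. Leaving out an array that stands apart narrows the spread of its group, so adjusted p-values without it are descriptive. They cannot be read as error rates.

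None of the 9 genes passed the test between aged and young cells. Fos, Atf3 and Junb had lower values on the aged arrays than on young replicates 2, 3 and 4, and young replicate 1 lay among or below the aged arrays for these genes. Fosl1 had higher values on the 4 aged arrays than on the 4 young arrays. Jun, Jund, Fosl2, Egr1 and Ier2 had overlapping groups with mean differences of at most 0.13 on the log2 scale. By limma with Benjamini-Hochberg adjustment, 0 of 9 were called at an adjusted p under 0.05, beside 0.655% of all genes tested. At an unadjusted p under 0.05 there were 2 of 9, Atf3 and Fosl1, beside 31.4% of all genes. Without young replicate 1, 4 of the 9 passed, beside 36.9% of all genes. They were Fosl1 as higher, beside 22.3% of all genes, and Fos, Junb and Atf3 as lower, beside 14.6%. The groups of these 4 then did not overlap, beside 46.3% of all genes. With array weights, a fit that counts an array less the more it departs from its group, 4 of the 9 passed on all 8 arrays, beside 45.1% of all genes. In bulk RNA, fewer cells of a type and less transcript per cell cannot be told apart.

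**Figure D1:**
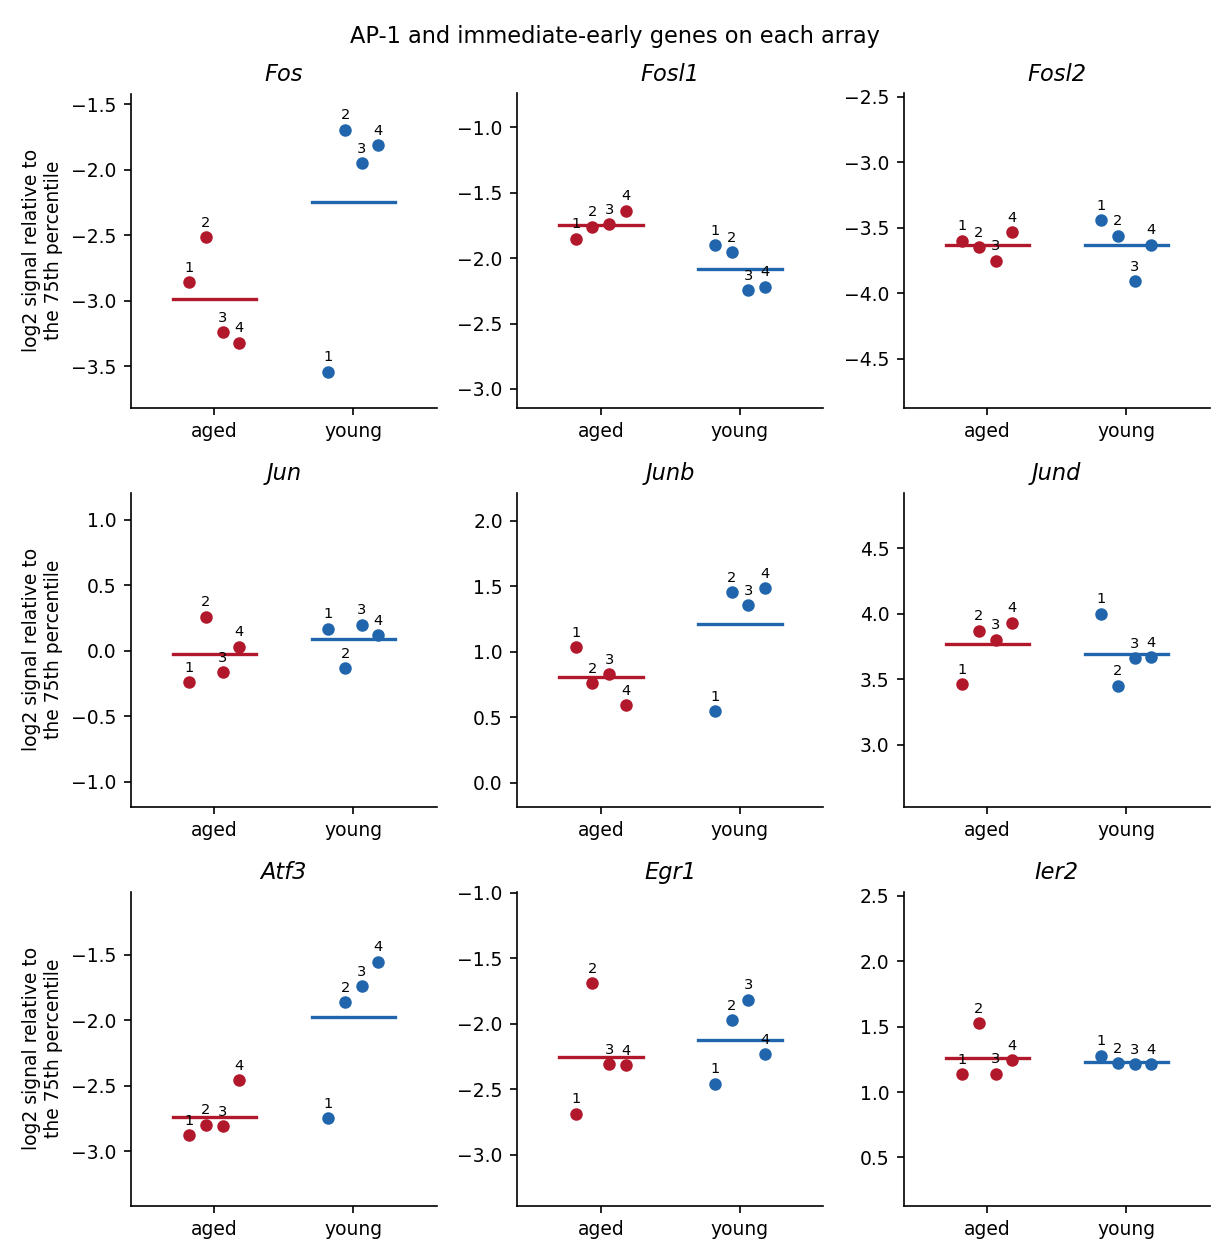
Log2 signal relative to the 75th percentile of each array (vertical axes, all of the same span) for the 9 genes on the 4 aged and the 4 young arrays. Points are single arrays marked with the replicate number and lines are group means. For Fos, Junb and Atf3, young replicate 1 lies with the aged arrays, and for Fosl1 the 4 aged arrays lie above the 4 young arrays.

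Among the promoters, RefSeq windows of 250 bases before to 50 bases after the start (build GRCr8) were matched for 7 of the 10 genes. These include Fosb, which had no probe. Fos, Jun and Atf3 had no matched window, so the motif counts do not cover them. Those of Junb and Fosl1 are shown because these genes had the opposite age difference without young replicate 1. Those of Jund and Ier2 are shown because they hold a full cAMP response element, TGACGTCA, the element that ATF and Jun dimers bind. The windows are chr19:40080876-40081175 (plus strand) for Junb, chr1:212183635-212183934 (plus strand) for Fosl1, chr16:18769722-18770021 (minus strand) for Jund and chr19:40399123-40399422 (plus strand) for Ier2. Each is written 5′ to 3′ on the strand of the gene, with the core TGACG on either strand in capitals.
Junb: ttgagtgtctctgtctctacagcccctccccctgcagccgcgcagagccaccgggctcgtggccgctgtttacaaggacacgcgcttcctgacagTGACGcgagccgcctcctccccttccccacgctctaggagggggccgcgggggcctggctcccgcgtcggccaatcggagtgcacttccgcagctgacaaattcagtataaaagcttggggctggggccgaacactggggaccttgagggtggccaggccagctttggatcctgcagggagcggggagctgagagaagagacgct
Fosl1: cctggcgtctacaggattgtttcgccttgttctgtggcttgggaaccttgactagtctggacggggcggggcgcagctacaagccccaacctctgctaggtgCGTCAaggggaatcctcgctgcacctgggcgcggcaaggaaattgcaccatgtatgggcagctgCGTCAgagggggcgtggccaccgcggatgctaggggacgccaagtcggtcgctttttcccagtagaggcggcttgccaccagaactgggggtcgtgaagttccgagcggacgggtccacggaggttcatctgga
Jund: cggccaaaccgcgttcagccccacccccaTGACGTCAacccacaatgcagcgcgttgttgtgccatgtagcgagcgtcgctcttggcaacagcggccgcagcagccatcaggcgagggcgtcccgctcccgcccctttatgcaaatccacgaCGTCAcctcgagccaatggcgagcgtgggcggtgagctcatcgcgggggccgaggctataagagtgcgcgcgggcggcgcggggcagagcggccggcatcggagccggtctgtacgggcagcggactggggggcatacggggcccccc
Ier2: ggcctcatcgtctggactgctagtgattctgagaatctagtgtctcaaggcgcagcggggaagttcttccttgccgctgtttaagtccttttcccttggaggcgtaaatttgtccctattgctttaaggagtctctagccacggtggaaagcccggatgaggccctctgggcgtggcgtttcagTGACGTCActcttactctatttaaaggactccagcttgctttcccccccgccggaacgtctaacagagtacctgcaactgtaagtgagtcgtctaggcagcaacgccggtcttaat

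The motif TGACG was found on either strand in 5 of the 7 promoters (Fosl1, Jund, Egr1, Junb and Ier2), and in 21.2% of all 33469 promoter windows. In Junb it began 155 bases before the start, and in Fosl1 the 2 matches began 148 and 84 bases before it. The full element TGACGTCA, which contains TGACG on both strands, began 221 bases before the start of Jund and 66 bases before that of Ier2, and 1.83% of all windows hold it. The AP-1 element TGANTCA was in 0 of the 7 windows, beside 7.33% of all. The CArG box, the element of serum response factor, was in 1 of the 7, Egr1, beginning 105 and 83 bases before the start, beside 1.64% of all. The Egr1 element GCGNGGGCG was in Fosl2 and Jund, with 3 matches in Jund, beside 4.98% of all. These are matches of letters within the windows only.

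In the Fos family, Fos had values of −2.86, −2.51, −3.24 and −3.32 on the aged arrays, against −3.54, −1.69, −1.95 and −1.81 on the young arrays. The groups overlapped through young replicate 1, which was the lowest of the 8 arrays, while the other 3 young arrays were above every aged array. The mean was −2.98 ± 0.37 in aged and −2.25 ± 0.87 in young cells (SD, n = 4 each). The difference of −0.73 ± 0.39 (SE) had a 95% interval from −1.62 to 0.15 and an adjusted p of 0.224. With young replicate 1 left out, the young mean was −1.82 ± 0.13 and Fos fell by 1.17 ± 0.20 on the log2 scale, 2.24-fold, with an adjusted p of 0.00693. Fos was dim, at 42.0 to 63.1 intensity units on the aged arrays and at 28.0, 125, 130 and 117 on the young arrays, and its 2 spots differed with a median SD of 0.15 within an array. With normexp background correction, which lifts dim signals by a fixed offset, its difference was −0.43 with percentile scaling and −0.36 with quantile scaling.

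Fosl1, which encodes Fra-1, a Fos protein without the transactivation domain of Fos, had values of −1.85, −1.76, −1.74 and −1.64 on the aged arrays, against −1.90, −1.95, −2.25 and −2.22 on the young arrays. It was the only one of the 9 whose groups did not overlap, beside 14.3% of all genes tested and 10.2% with the aged arrays higher. The gap between the lowest aged and the highest young array, −1.85 and −1.90, was small against the spread within a group, and the groups overlapped with no scaling and with the percentile taken over spots in place of probes. The difference was 0.33 ± 0.12 (95% interval 0.065 to 0.598, adjusted p = 0.108), and without young replicate 1 Fosl1 rose by 0.39 ± 0.11, 1.31-fold (adjusted p = 0.0256). Its sign was the same with percentile, median, quantile and no scaling and turned to −0.12 with spike-in scaling. The median change of all genes was −0.35 with spike-in scaling, against 0.11 with percentile scaling and 0.26 with median scaling. Relative to the median gene, the difference of Fosl1 was 0.23 with each of these 3 scalings. They shift all genes of an array alike, so this value could not differ between them. With quantile scaling, where it could differ, it was 0.33.

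Fosl2, which encodes Fra-2, had values of −3.60, −3.65, −3.75 and −3.53 on the aged arrays, against −3.44, −3.56, −3.91 and −3.63 on the young arrays. The groups overlapped throughout. The means were −3.63 ± 0.09 in aged and −3.63 ± 0.20 in young cells, with a 95% interval of the difference from −0.28 to 0.28 (adjusted p = 0.995). A second Fosl2 probe, at 7.06 to 12.2 intensity units, was well above background on 1 of 8 arrays and was left out.

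In the Jun family, Jun, the main partner of Fos, had values of −0.24, 0.26, −0.16 and 0.03 on the aged arrays, against 0.17, −0.13, 0.20 and 0.12 on the young arrays. Aged replicate 2 was the highest array and aged replicate 1 the lowest, with the young arrays between them. The difference was −0.12 ± 0.14 (95% interval −0.43 to 0.20, adjusted p = 0.580), and it was 0.04 with median scaling.

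Junb, a Jun protein that can restrain the activity of Jun, had values of 1.03, 0.76, 0.83 and 0.59 on the aged arrays, against 0.55, 1.46, 1.36 and 1.49 on the young arrays. As for Fos, young replicate 1 was the lowest of the 8 and the other 3 young arrays were above every aged array. The mean was 0.80 ± 0.18 in aged and 1.21 ± 0.45 in young cells, and the difference was −0.41 ± 0.21 (95% interval −0.89 to 0.076, adjusted p = 0.218). With that array left out, Junb fell by 0.63 ± 0.12 on the log2 scale, 1.55-fold (adjusted p = 0.0083). The array carries 1 spot for Junb, so its values have no spot replicate, at 677, 610.4, 706 and 789 intensity units on the aged arrays and at 476, 1106, 1286 and 1147 on the young arrays.

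Jund, a Jun protein that is often present without a stimulus, had values of 3.46, 3.87, 3.80 and 3.93 on the aged arrays, against 4.00, 3.45, 3.66 and 3.67 on the young arrays. Its highest array was young replicate 1 and its lowest was young replicate 2. The difference was 0.07 ± 0.15 (95% interval −0.27 to 0.41, adjusted p = 0.768), and its sign changed to −0.08 with quantile scaling. The 2 spots of Jund agreed most closely of the 8 genes with several spots, with a median SD of 0.030 within an array.

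Atf3, a stress-induced ATF protein that represses or activates genes depending on its partner, had values of −2.88, −2.80, −2.81 and −2.46 on the aged arrays, against −2.75, −1.86, −1.74 and −1.55 on the young arrays. Young replicate 1 lay among the aged arrays, and the other 3 young arrays were all higher than any aged array. The mean was −2.74 ± 0.19 in aged and −1.98 ± 0.53 in young cells. The difference of −0.76 ± 0.24 had a 95% interval from −1.31 to −0.21, an unadjusted p of 0.0122 and an adjusted p of 0.0896. Atf3 without young replicate 1 fell by 1.02 ± 0.13 on the log2 scale, 2.03-fold (adjusted p = 0.00363). With spike-in scaling Atf3 passed the test on all 8 arrays, at −1.22, beside 10.5% of all genes. With normexp correction its difference was −0.47 (percentile scaling) and −0.41 (quantile scaling). Fos, Junb and Atf3 had a negative difference under all 24 alternatives run.

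Egr1, a zinc-finger factor induced through serum response factor, had values of −2.69, −1.69, −2.31 and −2.31 on the aged arrays, against −2.46, −1.97, −1.82 and −2.23 on the young arrays. Aged replicate 2 was the highest and aged replicate 1 the lowest array. The difference was −0.13 ± 0.22 (95% interval −0.63 to 0.37, adjusted p = 0.705), and its sign changed with median scaling (0.03).

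Ier2, a short-lived immediate-early nuclear protein, had values of 1.14, 1.53, 1.14 and 1.24 on the aged arrays, against 1.28, 1.22, 1.21 and 1.21 on the young arrays. The young arrays were closer together than for any other of the 9 genes (SD 0.033, against 0.18 on the aged arrays). The aged arrays lay on both sides of the young arrays, with aged replicate 2 above them. The difference was 0.03 ± 0.12 (95% interval −0.23 to 0.29, adjusted p = 0.867), with a sign that changed under quantile scaling (−0.04). Ier2 is read by 10 spots on each array, and 3 outlier spots were left out over the 8 arrays together. Its spots had a median SD of 0.061 within an array.

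**Figure D2:**
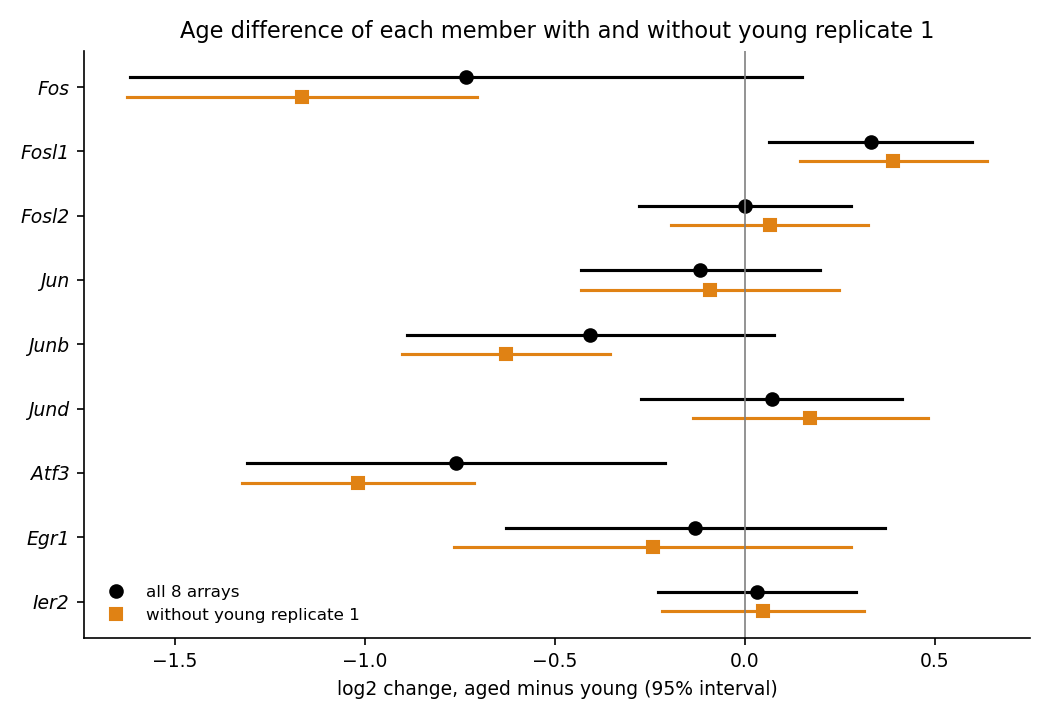
Log2 change, aged minus young (horizontal axis), of the 9 genes with 95% intervals from limma, for all 8 arrays (black circles) and without young replicate 1 (orange squares). The intervals of Fosl1 and Atf3 lie off 0 with all 8 arrays, and those of Fos, Junb, Atf3 and Fosl1 without young replicate 1.

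No array was uniformly high or low for the 9 genes. Aged replicate 1 was the lowest array for 4 of them (Jun, Atf3, Egr1 and Ier2), and aged replicate 2 was the highest for 3 (Jun, Egr1 and Ier2). Young replicate 1 was the lowest for 2 (Fos and Junb) and the highest for 2 (Fosl2 and Jund). After centring each gene on its mean, the mean over the 9 genes was −0.20, 0.08, −0.17 and −0.09 on the aged arrays, against −0.16, 0.18, 0.16 and 0.19 on the young arrays. The median change of the 9 genes was −0.12, beside 0.11 for all genes tested. Of the 9 genes, 4 were higher and 5 lower, beside 6493 higher and 3743 lower of all 10236 genes. By the root mean square difference of centred profiles over the 8 arrays, the closest pair was Jun and Ier2 (0.124) and the farthest was Fos and Fosl1 (0.846). Among Fos, Junb and Atf3 the distances were 0.296 for Atf3 and Junb, 0.375 for Fos and Junb and 0.393 for Fos and Atf3. Junb was little farther from Egr1 (0.401), Ier2 (0.412) and Jun (0.420). Genes that vary little lie close by this measure. The root mean square from the gene's own mean was 0.116 for Ier2 and 0.175 for Jun, against 0.685 for Fos.

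Some lists of cell type markers differed between the same arrays as Fos, Junb and Atf3. Of all genes tested, 0.655% were called with all arrays and 31.4% had an unadjusted p under 0.05. Without young replicate 1, 36.9% of all genes were called, 22.3% as higher and 14.6% as lower. All 11 measured peritubular myoid and stromal markers of 13 had lower means in aged cells, with 0 called by limma with all arrays (10 at an unadjusted p under 0.05) and 11 without young replicate 1. Their list mean, centred on each gene, was −1.48 to −0.28 on the aged arrays, against 1.10 to 1.24 on young replicates 2, 3 and 4 and −0.71 on young replicate 1. All 15 measured spermatid markers of 16 had lower means as well (0 called, 9 at an unadjusted p under 0.05, and 15 called without young replicate 1), with list means of −1.18 to −0.15 on the aged arrays, against 0.60 to 1.12 on young replicates 2, 3 and 4 and −0.54 on young replicate 1. The 10 measured macrophage markers of 13 had list means of −1.45 to 0.56 on the aged arrays and −0.60 to 1.07 on the young arrays, with 0 called (2 at an unadjusted p under 0.05) and 4 called without young replicate 1. Aged replicate 4, at 0.56, lay level with young replicates 3 and 4 (0.61 and 0.56). Aged replicate 2 was the lowest aged array for the stromal, spermatid and macrophage lists, at −1.48, −1.18 and −1.45. The other aged arrays lay at −0.67 to −0.28, −0.57 to −0.15 and −0.44 to 0.56. Aged replicate 2 was kept in the fit without young replicate 1. The 13 measured spermatocyte markers of 14 ran the other way from those lists. All 13 were higher in aged cells and 8 rose. The spermatocyte list means were 0.25 to 0.70 on the aged arrays, against −0.60 to −0.22 on the young arrays. The 12 measured markers of undifferentiated spermatogonia had a median change of −0.19, with 10 lower, 2 higher and 0 called (4 at an unadjusted p under 0.05). Without young replicate 1, 1 of them rose and 2 fell. Gfra1, the receptor for GDNF, had values of −1.31, −1.45, −1.17 and −0.63 on the aged arrays, against −0.88, −0.27, 0.04 and 0.09 on the young arrays, where young replicate 1 lay among the aged arrays. Its difference was −0.89 ± 0.25 (adjusted p = 0.0742), and without that array it fell by 1.10 ± 0.20 on the log2 scale (adjusted p = 0.00784). Ret, its co-receptor, had values of −0.85, −0.71, −0.76 and −0.61 on the aged arrays, against 0.05, −0.36, −0.55 and −0.43 on the young arrays. The groups of Ret did not overlap, and young replicate 1 was the highest array. Its difference was −0.41 ± 0.14 (adjusted p = 0.104), and −0.28 ± 0.10 without young replicate 1 (adjusted p = 0.0508). The 6 measured Sertoli cell markers had a median change of 0.14, with 4 higher, 2 lower and 1 called higher. For the 5 measured Leydig cell markers it was −0.10 (2 higher, 3 lower, 0 called, also without young replicate 1). For the 5 measured endothelial markers it was −0.11 (2 higher, 3 lower, 0 called, and 2 called lower without young replicate 1). The part of these cell types in the values of the AP-1 genes was not tested.

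**Figure D3:**
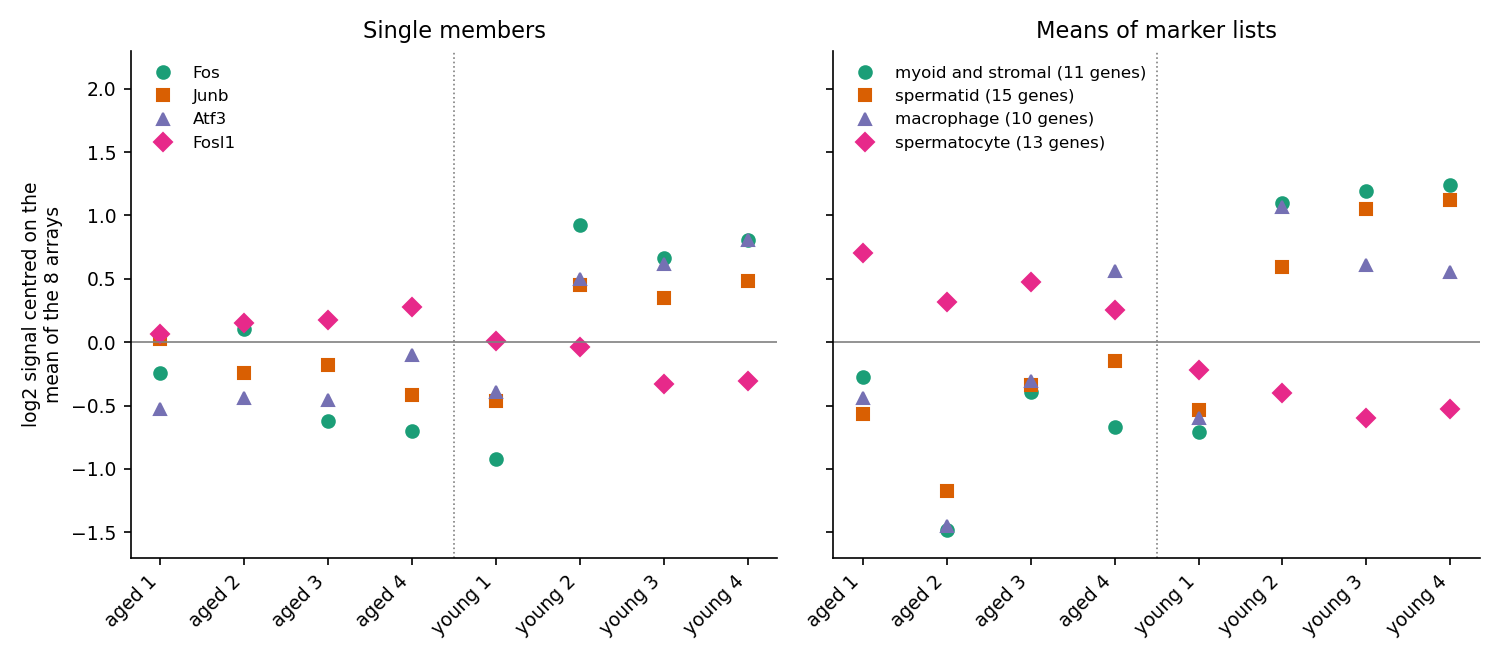
Log2 signal centred on the mean of the 8 arrays (vertical axis) for Fos, Junb, Atf3 and Fosl1 (left) and for the means of 4 marker lists (right) on the 4 aged and the 4 young arrays. Young replicate 1 lies with the aged arrays for Fos, Junb and Atf3 and for the stromal, spermatid and macrophage lists, and the spermatocyte list means are 0.25 to 0.70 on the aged arrays.

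The other bZIP genes, partners and inhibitors of AP-1, had 6 of 13 tested, a median change of 0.10 and 0 called. There were also 0 at an unadjusted p under 0.05 and 0 called without young replicate 1. Of all genes, 31.4% had an unadjusted p under 0.05 and 36.9% were called without young replicate 1. Atf4, an ATF protein of the integrated stress response, had a difference of 0.29 ± 0.17 (adjusted p = 0.263), and Mafk, a small Maf protein, one of 0.18 ± 0.17 (adjusted p = 0.479). Under spike-in scaling, which shifts the median of all genes by −0.46, they were −0.16 and −0.27.

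Of 34 other immediate-early genes, 29 were tested and 0 were called. At an unadjusted p under 0.05 there were 8 (27.6%), beside 31.4% of all genes. The median change of the 29 was −0.0022, with 14 higher and 15 lower. Nr4a1, an orphan nuclear receptor induced by the same signals as Fos, had values of −2.22, −2.82, −2.62 and −2.94 on the aged arrays, against −2.11, −1.01, −1.30 and −1.12 on the young arrays. Its groups did not overlap, young replicate 1 being nearest to the aged arrays. The difference was −1.26 ± 0.25 (adjusted p = 0.0539), and without young replicate 1 Nr4a1 fell by 1.50 ± 0.18 on the log2 scale, 2.83-fold (adjusted p = 0.00306). Ccn1, a secreted matrix protein, had values of −2.74, −3.17, −2.81 and −2.96 on the aged arrays, against −2.81, −1.53, −1.47 and −1.26 on the young arrays. Here young replicate 1 lay among the aged arrays. The difference of Ccn1 was −1.15 ± 0.31 (adjusted p = 0.0695), and without that array it fell by 1.50 ± 0.13 (adjusted p = 0.00301). Without young replicate 1, 9 of the 29 passed, beside 36.9% of all genes: Nr4a1, Nr4a2, Ccn1, Klf4, Klf6 and Gadd45g as lower, and Egr3, Ier5l and Socs3 as higher.

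Upstream of AP-1, 17 of 24 kinases and serum response factors were tested. Their median change was 0.07, beside 0.11 for all genes tested. Of the 17, 14 were higher and 3 lower, beside 6493 higher and 3743 lower of all 10236 genes. Among the 17, 0 were called and 4 had an unadjusted p under 0.05 (23.5%, beside 31.4% of all genes). Rps6ka3, a kinase activated by ERK, had values of −0.68, −0.58, −0.75 and −0.69 on the aged arrays, against −0.95, −1.23, −1.21 and −1.22 on the young arrays. Mapk9, the kinase JNK2 that phosphorylates Jun, had values of −1.37, −1.19, −1.44 and −1.59 on the aged arrays, against −1.69, −1.81, −1.89 and −2.08 on the young arrays. Neither gene's groups overlapped. The differences were 0.48 ± 0.11 (adjusted p = 0.0561) for Rps6ka3 and 0.47 ± 0.13 (adjusted p = 0.0712) for Mapk9, and they were 0.022 and 0.014 under spike-in scaling, which shifts the median of all genes by −0.46. Without young replicate 1, Rps6ka3, Mapk9 and the MAP kinase kinase gene Map2k2 rose, 3 of 17 or 17.6%, beside 22.3% of all genes called higher in that fit.

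Of 19 feedback inhibitors of MAP kinase signalling, 12 were tested, with a median change of −0.02 and 0 called. At an unadjusted p under 0.05 there was 1 (8.33%), beside 31.4% of all genes. Itch, a ubiquitin ligase that targets Jun and Junb for degradation, had a difference of −0.65 ± 0.19 (adjusted p = 0.079) and passed without young replicate 1 (−0.79 ± 0.16, adjusted p = 0.0109), as 1 of the 12 or 8.33%, beside 36.9% of all genes. Dusp5, a nuclear phosphatase of ERK, had a difference of 0.24 ± 0.13 (adjusted p = 0.231), and one of −0.22 under spike-in scaling with its shift of −0.46.

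Of 20 textbook AP-1 targets, 10 were tested, with a median change of −0.0023, 5 higher, 5 lower and 0 called. At an unadjusted p under 0.05 there was 1 (10%), beside 31.4% of all genes. Sparc, a matrix glycoprotein of stromal cells, had values of −0.56, −2.12, 0.03 and −0.13 on the aged arrays, against −1.09, 1.41, 1.75 and 1.65 on the young arrays. Only young replicate 1 overlapped with the aged arrays. The difference was −1.62 ± 0.68 (adjusted p = 0.143). In the fit without young replicate 1, 4 of the 10 passed, beside 36.9% of all genes. They were Sparc (−2.30 ± 0.48) and Timp1, a metalloproteinase inhibitor, as lower, and Ccnd1, cyclin D1, and Mt1, a metallothionein, as higher.

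Heat shock and chaperone genes, some of which like Atf3 respond to stress, had 14 of 18 tested, a median change of 0.14 and 0 called. At an unadjusted p under 0.05 there were 5 (35.7%), beside 31.4% of all genes. Hspb1, a small heat shock protein, had values of −1.91, −2.52, −2.41 and −1.59 on the aged arrays, against −1.49, −0.35, 0.14 and 0.22 on the young arrays. Its groups did not overlap, and young replicate 1 was nearest to the aged arrays. The difference was −1.73 ± 0.38 (adjusted p = 0.0561). Bag3, a co-chaperone, had a difference of −0.98 ± 0.27 (adjusted p = 0.0732). Without young replicate 1, 7 of the 14 passed, beside 36.9% of all genes, with Hspb1, Bag3 and Hspa1l lower and Hsp90aa1, Hspa4, Hspe1 and Hsf1 higher.

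**Figure D4:**
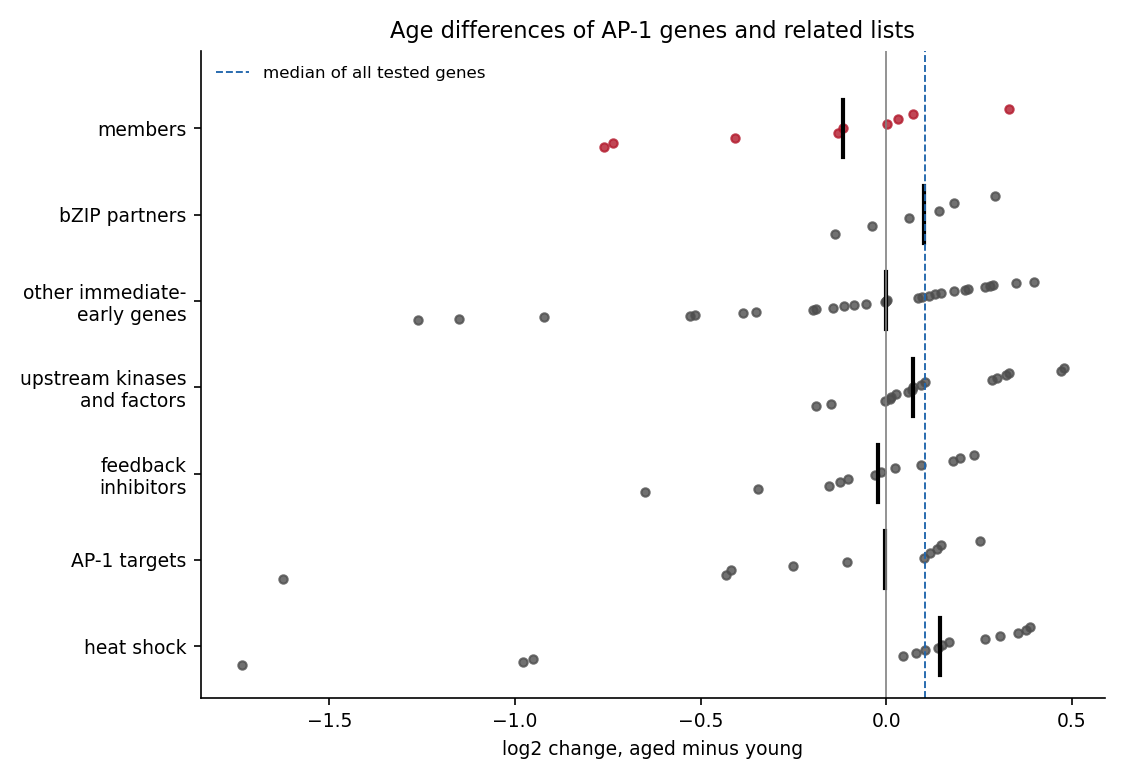
Log2 change, aged minus young (horizontal axis), of every tested gene in the AP-1 and immediate-early group (red, labelled members) and in 6 related lists (grey). Each point is 1 gene, black bars are list medians and the dashed line is the median of all tested genes, 0.11; the list medians lie between −0.12 and 0.14.

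The tested genes whose centred profile over the 8 arrays was closest to the mean profile of the 9 genes were Ltbr, a receptor of the tumour necrosis factor family (root mean square difference 0.0616), Cep112 (0.062), Retreg1, a receptor for the autophagy of endoplasmic reticulum (0.0776), Vegp2 (0.086) and Traf3ip1 (0.089), with a median of 0.325 over 10225 genes. Closest to Fos were Rdh10, a retinol dehydrogenase (0.215), Cfap141 (0.259) and Map2, a microtubule-associated protein (0.29), with a median of 0.788. Closest to Jun were Mtmr7 (0.102), Maged2 (0.104) and Hexa (0.105), with a median of 0.292.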

How the data were processed

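Scanner output of 8 one-colour arrays was analysed, grouped by age from the labels. The authors deposited a processed signal, an intensity on a linear scale. Background and a spatial trend had been subtracted by Agilent Feature Extraction 10.7.3.1, per the file headers (12.5 in the submitters' processing notes), and the headers record no scaling between arrays. The array design is on build rn4, per the file headers. Deposited median spot and background signals are raw intensity values. The authors' deposited table holds log2 values with a median of 0 per probe over the arrays (within 5e-07). Its column medians were −0.02, 0.05, 0.06 and −0.0026 for aged and 0.09, −0.07, −0.13 and −0.06 for young replicates 1 to 4. Over tested genes it differed from the scaled scanner values, centred alike, by a median of 0.0016, which settled its scale, direction and scaling.

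Leaving out controls and outliers, spots were averaged per probe as log2 values, from which the 75th percentile over probes was subtracted. The RefSeq table of GRCr8 served for names and promoter sequences only: 17998 probes matched 15154 genes and 12369 stayed unnamed. Probes entered with a share of at least 0.5 of spots well above background on all arrays of a group and at least 2 values in each group. The brightest such probe stood for its gene (1564 of 10236 genes had several). Aged and young arrays were compared with limma 3.58.1 in R 4.3.3 (lmFit and eBayes, two-sided tests with 9.15 degrees of freedom after moderation), with the package data.table (version 1.17.8). The Benjamini-Hochberg adjustment ran over all 10236 genes, and an adjusted p under 0.05 made a call. The fit was tested on simulated data. The number of arrays limits the precision.

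The genes described and the lists were chosen with earlier results of these data known. All 10 genes were to be named, with up to 4 called members of each related list, or the 2 with the smallest p, Cd9, Zbtb16, Gfra1, Ret and Ddx4, and the genes nearest in profile. A gene that this rule names among the AP-1 targets is not reported here. The further list genes that passed without young replicate 1 were named after their values were seen. Same-numbered aged and young arrays had correlations of their deviations from the group means, across genes, of −0.26, −0.12, 0.44 and 0.35, so the numbers were not taken as pairs. The alternatives were other scalings, normexp correction (offset 50, on median signals), the authors' values, filters, probe rules, variance models, array weights, a replicate block and leaving out each array.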

Additional observations from a re-analysis of the deposited data

Results flagged for a closer look

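In groups of 4 arrays, an array was taken to stand apart where its gap to the nearest other array, as a share of the group's range, exceeded 0.829. Of 52 groups examined, for the AP-1 and immediate-early genes and the other named genes, 6 had such an array. Chance gives about 1 in 20 for independent groups. These groups share the same arrays and some genes were picked by p, so the 6 cannot be judged against that rate. In each of the 6 it was young replicate 1. It was the lowest young array for Fos (share 0.860, with −3.54 against −1.95 for the nearest young array), for Junb (0.860, with 0.55 against 1.36) and for Sparc (0.883, with −1.09 against 1.41). It was the highest young array for Ier2 (0.885, with 1.28 against 1.22), for Rps6ka3 (0.916, with −0.95 against −1.21) and for Zbtb16, a transcription factor of undifferentiated spermatogonia (0.887, with −1.72 against −2.37). For Ier2 the gap was 0.06 on the log2 scale, because the other 3 young arrays lay within 0.01 of each other. Young replicate 1 minus the mean of the other young arrays was −1.72 for Fos, −0.89 for Junb and −1.03 for Atf3.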

How the results depend on the processing

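Across 24 alternatives, 1 of them chosen after seeing the data (the 75th percentile over spots in place of probes), Fos, Junb and Atf3 kept a negative difference (−1.19 to −0.36, −0.86 to −0.25 and −1.22 to −0.41), and Fosl1 kept a positive one in 23. The number of the 9 genes called, 0, became 4 with array weights, 1 with spike-in scaling, and 0 to 4 when 1 array was left out (4 without young replicate 1). The number with groups that do not overlap, 1, became 0 with the percentile over spots and with no scaling, 2 with normexp and percentile scaling, and 1 to 4 when 1 array was left out. The 4 came without young replicate 1, where 46.3% of all genes did not overlap, against 14.3% with all 8 arrays. This share over all genes was not tallied under the other settings.

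Of all 10236 genes, 67 were called (51 higher, 16 lower). This count was 1330 with median scaling (1067 higher, 263 lower), 1070 with spike-in scaling (6 higher, 1064 lower), 630 with normexp and percentile scaling (363 higher, 267 lower), 253 with normexp and quantile scaling (219 higher, 34 lower), 270 with a trended and robust variance and 4616 with array weights. With the percentile over spots it was 97 (55 higher, 42 lower). It was 0 with the replicate number as a block (3231 genes had an unadjusted p under 0.05, and 0 of the 9 genes were called), without scaling (1389), without the filter on dim probes (3339) and with unnamed probes added to the test (4929). Leaving out 1 array gave 0 to 3776, with 3776 only without young replicate 1 and at most 1 without any other. The cause of these shifts was not tested.

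Signs turned under several settings. With the percentile over spots Fosl2 was −0.053 and Ier2 −0.022, with no scaling Fosl2 was −0.030, and with array weights Zbtb16 was 0.076. Median scaling gave 0.038 for Jun, 0.025 for Egr1 and 0.061 for Zbtb16, and quantile scaling −0.079 for Jund, −0.040 for Ier2 and 0.039 for Zbtb16. Normexp gave 0.0057 for Egr1 with percentile scaling, and −0.025 for Jund, 0.064 for Egr1 and −0.043 for Ier2 with quantile scaling. Spike-in scaling, which shifts the median of all genes by −0.46 and so turns any smaller positive difference, gave −0.12 for Fosl1, −0.45 for Fosl2, −0.38 for Jund, −0.42 for Ier2, −0.16 for Atf4, −0.27 for Mafk and −0.22 for Dusp5. Leaving out 1 array gave −0.089 to 0.065 for Fosl2, −0.010 to 0.17 for Jund, −0.32 to 0.016 for Egr1, −0.057 to 0.074 for Ier2 and −0.17 to 0.078 for Zbtb16. Same-numbered arrays showed no common pairing, the highest correlation of deviations being 0.69 for aged replicate 2 with young replicate 1. Dim signals limit Fos, Fosl1, Fosl2, Atf3 and Egr1, whose highest array lay at 130, 168, 45.2, 151 and 143 intensity units.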
